A study of Mus musculus with 20 samples.

Results

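The genes described here are 41 genes of the cell division cycle, measured in mouse liver after the level of Pklr was lowered or raised. Pklr codes for the pyruvate kinase of liver and red blood cells, which makes pyruvate at the end of glycolysis. The members were found by gene symbol in both count tables, which together list 28100 genes. There were 4 genes of G1 and S entry, 10 of DNA replication and 27 of G2 and mitosis, and all 41 were listed in both tables.

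RNA was sequenced from 20 livers of male C57BL/6J mice. Each mouse received an AAV8 vector, derived from a virus with a preference for liver, by intravenous injection at 8 weeks of age, and stayed until 25 weeks on a diet labelled HF/HS. In the knockdown experiment the vector expressed a hairpin that targets Pklr (shPKLR, 5 livers) or, as control, luciferase (shLUC, 5 livers). In the overexpression experiment it expressed Pklr itself (PKLR, 5 livers) or, as control, GFP (GFP, 5 livers). All 4 vectors used a hepatocyte-active promoter, that of the gene for thyroxine binding globulin, so the other cells of the liver were not the intended site of expression. All 4 groups share the virus, the promoter and the diet.

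Dividing cells pass through G1, replicate their DNA in S phase, and separate the copies in mitosis. Cyclins and the kinases they bind drive these steps, E2F factors turn on the genes of S phase, and most mitotic genes are kept off in resting cells by the DREAM complex and turned on late in the cycle. Hepatocytes of an adult liver rarely divide, while macrophages, lymphocytes and other cells of the organ can, and RNA of whole tissue cannot tell fewer cells of a type from less RNA per cell.

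Each library held 29933820 to 45413803 counts, apart from shPKLR replicate 4 with 167891680. Pklr was at 24.4 to 80.5 counts per 1000000 (CPM, scaled between libraries) in shPKLR livers, against 343 to 616 CPM in shLUC livers, and at 389 to 945 CPM in PKLR livers, against 66.7 to 148 CPM in GFP livers, without overlap in either experiment. The 11 hepatocyte markers found, among them Alb and Apoa1, summed to between 77311 and 136803 CPM in every liver. GFP replicate 1 stood apart from the other 19 livers for the mitotic genes, and results that rest on it are given with and without it. The animals are not described further, so p-values measure the spread between these livers.

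The mitotic genes were low in shPKLR, shLUC and PKLR livers and higher in GFP livers. Summed over the 27 genes of G2 and mitosis, levels were 29.2, 18.9, 27.0, 25.3 and 27.2 CPM in shPKLR livers, against 20.7, 17.9, 20.2, 29.6 and 27.4 CPM in shLUC livers (here and below, values are in the order of replicates 1 to 5). The sums were 43.4, 20.5, 23.0, 21.8 and 21.6 CPM in PKLR livers, against 331, 57.7, 82.1, 84.8 and 31.4 CPM in GFP livers. PKLR replicate 1 was thus above GFP replicate 5, and the other 4 PKLR livers were below every GFP liver. The group means were 26.1 ± 9.74 CPM in PKLR livers and 117 ± 121 CPM in GFP livers (SD, n = 5 each), and GFP livers averaged 64.0 ± 24.9 CPM without replicate 1 (SD, n = 4). The GFP mean was 4.50 times the PKLR mean with GFP replicate 1 and 2.45 times without it. For the knockdown the means were 25.5 ± 3.95 CPM in shPKLR livers and 23.2 ± 5.04 CPM in shLUC livers (SD, n = 5 each).

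As a sum, the replication genes did not share this difference between PKLR and GFP livers. Their 10 genes summed to 51.4 ± 5.91 CPM in shPKLR livers and 57.8 ± 6.13 CPM in shLUC livers, and to 63.1 ± 5.88 CPM in PKLR livers and 63.4 ± 6.78 CPM in GFP livers (SD, n = 5 each). The 4 genes of G1 and S entry summed to 12.0 ± 7.89 CPM in shPKLR livers and 11.8 ± 2.42 CPM in shLUC livers, and to 17.0 ± 5.65 CPM in PKLR livers and 38.7 ± 18.5 CPM in GFP livers (SD, n = 5 each). Most of that last sum was Ccnd1. The mitotic sum of GFP livers was also 5.07 times that of shLUC livers, or 2.76 times without GFP replicate 1. That pair differs in vector and in experiment, which cannot be told apart, and the 2 tables were normalized separately, so it was given no test.

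**Figure D1:**
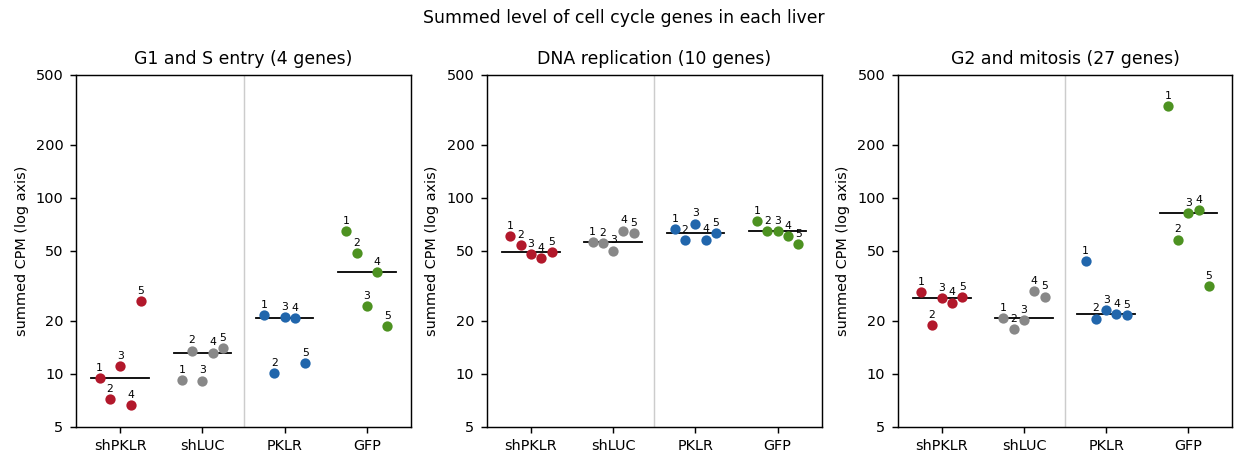
Summed CPM of the genes of G1 and S entry (4), DNA replication (10) and G2 and mitosis (27) in each liver, on a log axis, with the replicate number above each point and a line at the median of the group. The mitotic sum of GFP replicate 1 is 331 CPM, the other GFP livers lie between 31.4 and 84.8 CPM, and the replication sums of all 4 groups overlap.

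In the overexpression experiment the fold changes of the mitotic genes all had the same sign. In a fit with no filter on low counts, which covers every member, all 27 were lower in PKLR livers, with log2 fold changes from -3.43 to -0.72 and a median of -2.46, against a median of -0.00 over 26286 genes. Without GFP replicate 1 all 27 were still lower, with a median of -1.49. The 10 replication genes had a median of 0.04 in the fit with no filter, with 4 lower and 6 higher, and the 4 genes of G1 and S entry a median of -0.23, with 3 lower and 1 higher.

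Few of these differences passed the test. After the filter on low counts, 38 of the 41 members were tested among 15842 genes. Birc5 was the only member called lower in PKLR livers by edgeR's quasi-likelihood test with Benjamini-Hochberg adjustment, at an adjusted p of 0.050 that lies on the threshold, against 0.846% of all tested genes called lower. With no filter, 0 of 41 members were called, against 0.536% of all genes fitted. No member was called higher, against 1.19% of all tested genes, and none had an unadjusted p under 0.05 in that direction. At an unadjusted p under 0.05, 28 members were lower, against 9.16% of all tested genes, and with no filter 30 of 41, against 7.14% of all genes fitted. Other tools gave 25 members called lower with DESeq2, against 3.62% of all tested genes, and 0 with limma-voom, against 0.783%.

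Without GFP replicate 1 the calls were Birc5, Ccnb2 and Stmn1, 3 of 38 tested members, against 0.489% of all tested genes called lower. Without GFP replicate 5, the GFP liver with the lowest mitotic sum, 12 members were called lower, against 1.68% of all tested genes. With any of the other 8 libraries left out, 0 members were called, so the call of Birc5 was lost, as it was with RLE size factors. With no filter and without GFP replicate 1, Birc5, Ccnb2, Cdk1, Kif20a and Stmn1 were called lower among 41 members, against 0.431% of all genes fitted. Every PKLR liver was below every GFP liver for 4 of 41 members, Tyms, Ccnb2, Birc5 and Aurka, against 1.93% of all tested genes. The same 4 were separate without GFP replicate 1, against 2.33% of all tested genes.

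Members that the filter left out were Cdc6, Bub1 and Melk in the overexpression experiment, and these and Ccnb1, Kif2c and Cenpf in the knockdown. The filter asked for about 0.285 CPM in 5 libraries of the overexpression experiment. Ccnb1 was over that level in 1 PKLR liver and 5 GFP livers, and Hmmr in 2 PKLR livers and 5 GFP livers. Plk1, Tpx2, Cenpe and Cenpf were over it in 3 PKLR livers and 5 GFP livers each. Ccna2, Foxm1, Prc1 and Ube2c were over it in 4 PKLR livers and 5 GFP livers each. Kif2c was over it in 2 PKLR livers and 4 GFP livers, and Aurkb in 3 PKLR livers and 4 GFP livers. All these genes had fewer than 5 PKLR livers over the limit, so they passed only with the GFP livers.

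In the knockdown experiment no member was called. Against 0.00641% of all 15611 tested genes called lower and 0.0% called higher by edgeR's quasi-likelihood test with Benjamini-Hochberg adjustment, 0 of 35 tested members were called in either direction, and DESeq2 and limma-voom also called 0, against 0.884% and 0.0448% of all tested genes called lower. At an unadjusted p under 0.05, Rrm2 was lower and Ccne1, Cdk1 and Stmn1 were higher in shPKLR livers, against 5.66% and 9.32% of all tested genes lower and higher. No member had all shPKLR livers below all shLUC livers, against 2.03% of all tested genes, and none had them all above, against 1.24%. The median log2 fold change over all 41 members with no filter was -0.06, against 0.08 over all genes fitted.

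**Figure D2:**
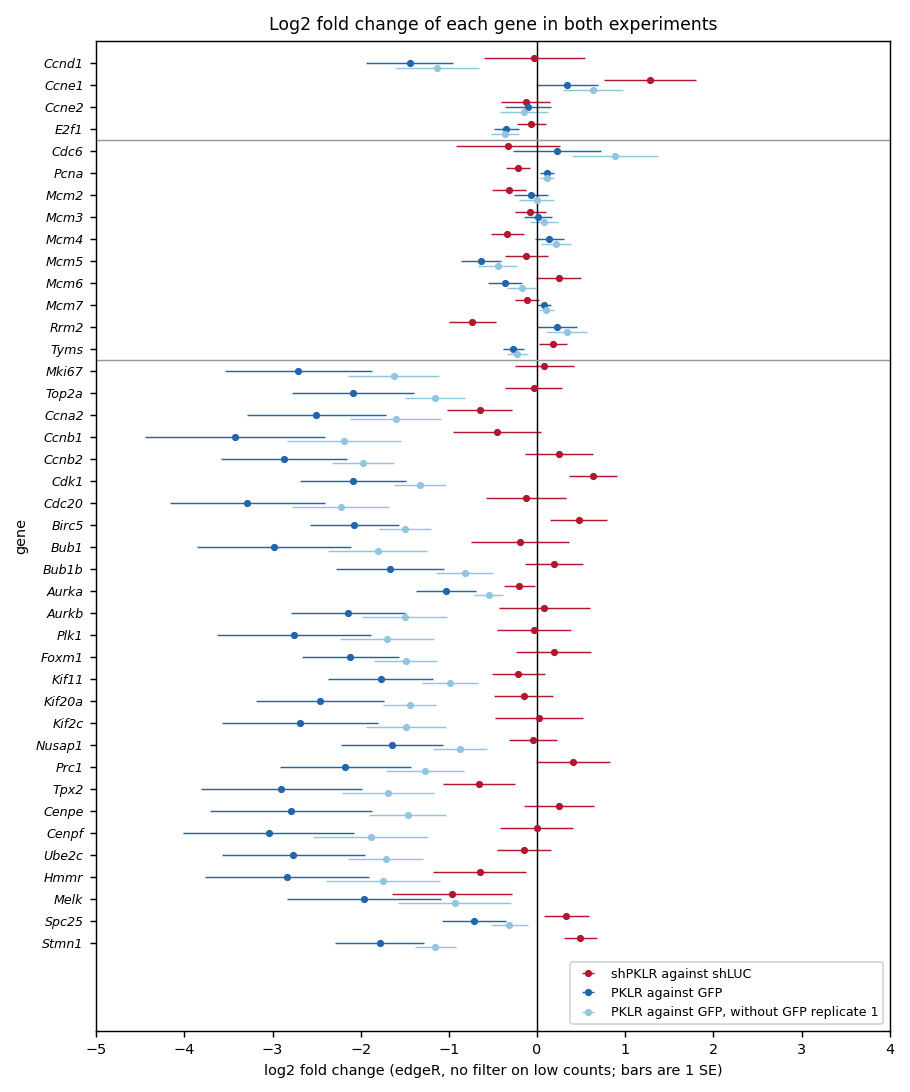
Log2 fold change of each of the 41 genes with 1 SE, from edgeR with no filter on low counts, for shPKLR against shLUC, PKLR against GFP, and PKLR against GFP without GFP replicate 1. The 27 genes of G2 and mitosis lie between -3.43 and -0.72 for PKLR against GFP and between -2.23 and -0.31 without GFP replicate 1, while the knockdown values lie on both sides of 0.

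The effect of overexpression less that of knockdown was tested in 1 model of all 20 livers. Ube2c, Birc5, Cdk1, Stmn1, Mki67 and Ccnb2 had a lower effect of overexpression than of knockdown, 6 of 38 tested members, against 2.75% of 16407 tested genes called in that direction, and no member was called in the other direction, against 2.75%. Differences of log2 fold changes were -2.66 for Ube2c (adjusted p = 0.0494), -2.59 for Birc5 (adjusted p = 0.0155) and -2.77 for Cdk1 (adjusted p = 0.0129). They were -2.32 for Stmn1 (adjusted p = 0.00946), -2.84 for Mki67 (adjusted p = 0.0476) and -3.16 for Ccnb2 (adjusted p = 0.0212). Without GFP replicate 1, Birc5, Cdk1, Stmn1 and Ccnb2 were called, against 1.41% of all tested genes, and the calls of Mki67 and Ube2c were lost. These last calls lie near the threshold: each was lost in 15 of 20 fits with a library left out, with RLE size factors, with limma-voom and with no filter. The call of Ccnb2 was also lost with limma-voom, which called Birc5, Cdk1 and Stmn1. Adding sample quality weights to limma-voom left Stmn1 as the only call. With no filter, Birc5, Cdk1, Stmn1 and Ccnb2 were called, 4 of 41 members, against 1.32% of all genes fitted. There were 19 calls without GFP replicate 5, against 4.2% of all tested genes, and 11 without PKLR replicate 1, against 2.17%.

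Ccnd1 encodes cyclin D1, which joins growth signals to the start of the cycle. Per kilobase of exon it had the highest level of the 4 genes of G1 and S entry in every group. Ccnd1 (chr7:144929931-144939925, minus strand, GRCm38) was at 15.4, 5.46, 16.02, 15.0 and 7.19 CPM in PKLR livers, against 58.0, 43.3, 17.97, 31.0 and 12.6 CPM in GFP livers. The GFP livers spread from 12.6 to 58.0 CPM and overlapped the PKLR livers, 3 of which exceeded GFP replicate 5. Its log2 fold change was -1.46 (SE 0.45, adjusted p = 0.117), and -1.15 (SE 0.44, adjusted p = 0.254) without GFP replicate 1. In the knockdown Ccnd1 was at 5.12, 2.98, 7.43, 2.23 and 19.3 CPM in shPKLR livers, against 4.78, 9.44, 5.18, 8.45 and 9.57 CPM in shLUC livers. Replicate 5 was the highest of the shPKLR livers, and the groups overlapped.

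Cyclin E, encoded by Ccne1 and Ccne2, works with Cdk2 at entry into S phase. Ccne1 (chr7:38097984-38107534, minus strand) was at 0.419, 0.301, 0.197, 0.782 and 2.05 CPM in shPKLR livers, against 0.236, 0.276, 0.308, 0.333 and 0.379 CPM in shLUC livers. The shPKLR livers lay on both sides of the shLUC livers, and shPKLR replicate 5 was the highest. With all livers the log2 fold change was 1.28 (SE 0.55, adjusted p = 0.317), and it was 0.57 (adjusted p = 0.396) without that library. Ccne1 was at 0.689, 0.672, 0.394, 1.47 and 0.745 CPM in PKLR livers, against 1.08, 0.632, 0.519, 0.447 and 0.447 CPM in GFP livers. These groups overlapped, with a log2 fold change of 0.33 (SE 0.36, adjusted p = 0.674), and of 0.62 without GFP replicate 1.

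Ccne2 (chr4:11191351-11204779, plus strand) was at 0.663, 0.672, 0.873, 0.673 and 0.596 CPM in PKLR livers, against 0.674, 0.553, 0.649, 0.950 and 0.949 CPM in GFP livers. The groups overlapped, with a log2 fold change of -0.11 (SE 0.22, adjusted p = 0.826). It was at 0.531, 0.603, 0.559, 0.504 and 0.839 CPM in shPKLR livers, against 0.606, 0.644, 0.679, 0.606 and 0.738 CPM in shLUC livers. Of the shPKLR livers, 4 were below every shLUC liver and 1 was above them all, with a log2 fold change of -0.12 (SE 0.23, adjusted p = 0.792).

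E2f1 is a transcription factor that turns on genes of S phase. E2f1 (chr2:154559407-154569892, minus strand) was at 4.69, 3.27, 3.74, 3.58 and 2.98 CPM in PKLR livers, against 4.50, 4.16, 4.96, 5.28 and 4.58 CPM in GFP livers. Replicate 1 was the PKLR liver that reached the GFP range. Its log2 fold change was -0.36 (SE 0.14, adjusted p = 0.18), and -0.37 (SE 0.15, adjusted p = 0.249) without GFP replicate 1. E2f1 was at 3.41, 3.28, 2.86, 3.09 and 3.53 CPM in shPKLR livers, against 3.60, 3.19, 2.96, 3.78 and 3.27 CPM in shLUC livers, with overlap.

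Pcna encodes the sliding clamp of DNA polymerase and had the highest level of all members per kilobase of exon in every group, at 8.63 CPM per kb in PKLR livers and 8.03 CPM per kb in GFP livers. Pcna (chr2:132249162-132253314, minus strand) was at 20.6, 20.2, 23.0, 18.8 and 21.04 CPM in PKLR livers, against 19.3, 20.1, 18.4, 18.8 and 19.9 CPM in GFP livers. Of the PKLR livers, 4 were above every GFP liver, by a narrow margin, and the log2 fold change was 0.10 (SE 0.07, adjusted p = 0.436). It was at 21.3, 20.2, 17.2, 13.6 and 16.1 CPM in shPKLR livers, against 19.7, 19.4, 19.5, 22.1 and 21.3 CPM in shLUC livers. Of the shPKLR livers, 3 were below every shLUC liver, with a log2 fold change of -0.21 (SE 0.13, adjusted p = 0.432).

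The Mcm genes encode subunits of the helicase that opens DNA at origins. Mcm5 (chr8:75109569-75128439, plus strand) was at 2.27, 1.92, 2.20, 1.65 and 2.12 CPM in PKLR livers, against 4.69, 2.76, 4.25, 2.15 and 2.04 CPM in GFP livers. GFP replicates 1 and 3 were the highest, and its log2 fold change was -0.64 (SE 0.24, adjusted p = 0.173), and -0.46 without GFP replicate 1. Mcm5 was at 1.85, 1.39, 1.48, 1.53 and 1.16 CPM in shPKLR livers, against 1.58, 1.53, 1.02, 1.45 and 2.38 CPM in shLUC livers, with overlap. Mcm6 (chr1:128331590-128359664, minus strand) was at 3.98, 3.11, 4.59, 2.90 and 4.32 CPM in PKLR livers, against 7.29, 5.19, 4.51, 3.80 and 3.68 CPM in GFP livers. Replicate 1 was again the highest GFP liver, and the groups overlapped, with a log2 fold change of -0.37 (SE 0.20, adjusted p = 0.348), and of -0.18 without GFP replicate 1. Mcm6 was at 4.14, 1.66, 3.55, 2.58 and 3.82 CPM in shPKLR livers, against 1.85, 2.42, 2.25, 2.69 and 3.88 CPM in shLUC livers, with overlap.

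Mcm4 (chr16:15623897-15637400, minus strand) was at 3.78, 2.68, 2.60, 2.44 and 2.78 CPM in shPKLR livers, against 3.30, 3.53, 2.87, 4.21 and 3.94 CPM in shLUC livers. Of the shPKLR livers, 4 were below every shLUC liver, and the log2 fold change was -0.33 (SE 0.17, adjusted p = 0.371). Mcm4 was at 4.44, 3.36, 5.07, 3.64 and 3.87 CPM in PKLR livers, against 4.50, 3.76, 4.35, 3.02 and 3.04 CPM in GFP livers, with overlap. Mcm2, Mcm3 and Mcm7 had log2 fold changes of -0.07, 0.01 and 0.08 in the overexpression experiment with no filter. Cdc6, which loads the helicase, was at a mean of 0.22 CPM in PKLR livers and 0.188 CPM in GFP livers.

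Rrm2 is a subunit of ribonucleotide reductase and Tyms is thymidylate synthase, and both supply nucleotides for DNA synthesis. Rrm2 (chr12:24708241-24714146, plus strand) was at 4.78, 5.73, 2.27, 2.22 and 3.56 CPM in shPKLR livers, against 5.05, 7.05, 3.86, 7.30 and 7.19 CPM in shLUC livers. Of the shPKLR livers, 3 were below every shLUC liver, and the log2 fold change was -0.73 (SE 0.28, adjusted p = 0.295). Rrm2 was at 7.42, 4.61, 9.23, 4.77 and 5.70 CPM in PKLR livers, against 7.20, 5.42, 5.16, 6.31 and 3.38 CPM in GFP livers, with overlap and a log2 fold change of 0.21 (SE 0.23, adjusted p = 0.67), and of 0.33 without GFP replicate 1.

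Tyms (chr5:30058202-30073617, minus strand) was at 4.52, 4.95, 4.65, 4.80 and 4.99 CPM in PKLR livers, against 6.52, 5.79, 6.20, 5.34 and 5.14 CPM in GFP livers. All PKLR livers were below all GFP livers, by a small margin, and the log2 fold change was -0.28 (SE 0.10, adjusted p = 0.156), and -0.23 without GFP replicate 1. Tyms was at 5.51, 5.09, 4.87, 6.16 and 5.06 CPM in shPKLR livers, against 4.88, 3.92, 4.50, 5.60 and 4.57 CPM in shLUC livers, with overlap.

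Among the mitotic genes the order of livers was nearly the same from gene to gene. GFP replicate 1 was the highest of the 10 livers of the experiment for 27 of 27 genes, GFP replicate 5 was the lowest GFP liver for 26 of 27, and PKLR replicate 1 was the highest PKLR liver for 25 of 27. The level in GFP replicate 1 was 2.60 to 8.44 times the mean of the other 4 GFP livers, with a median of 5.51 over the 27 genes. For the replication genes the same ratio ran from 0.999 to 3.81 with a median of 1.26. Part of the order was shared by these 10 genes: replicate 1 was the highest GFP liver for 8 and replicate 5 the lowest GFP liver for 7. PKLR replicate 1 was the highest PKLR liver for 5 of the 10. In the knockdown experiment no liver led in this way: shLUC replicate 4 was the highest for 9 of 27 genes, and shLUC replicate 5 and shPKLR replicate 1 for 5 each.

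**Figure D3:**
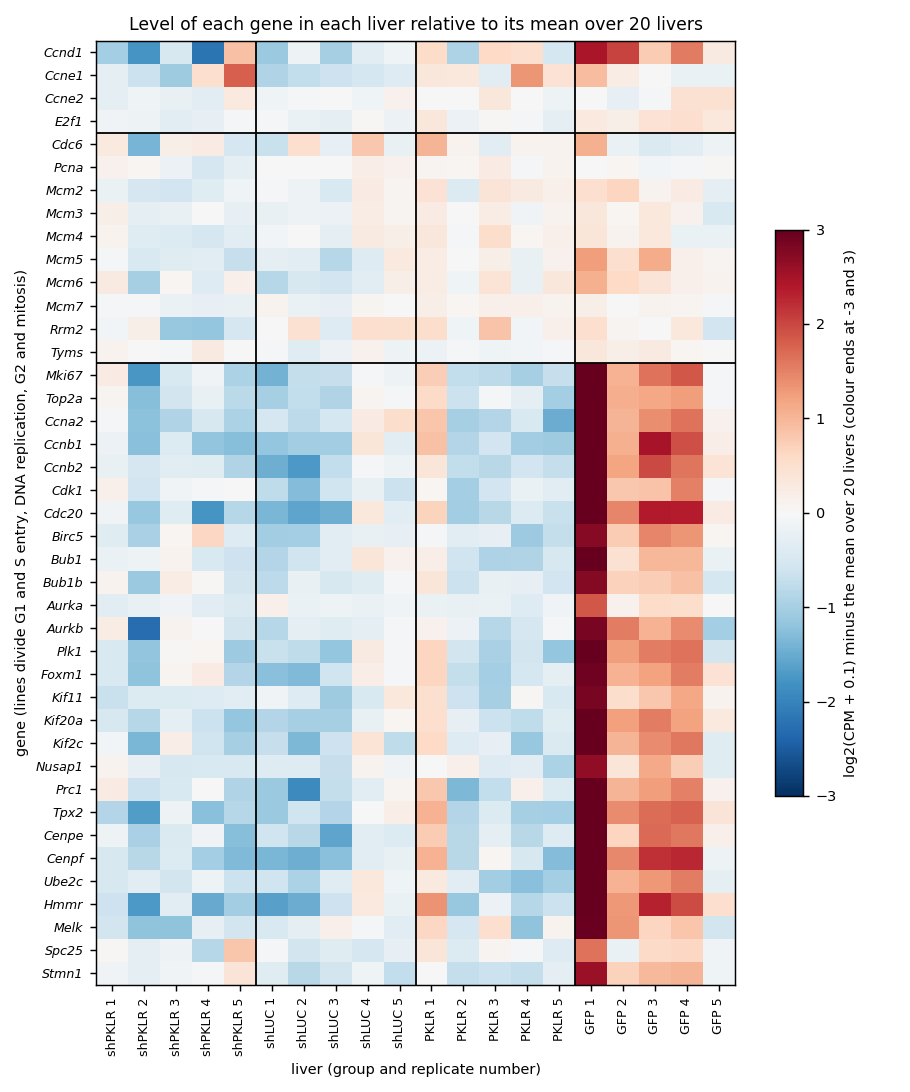
Level of each gene in each liver as log2(CPM + 0.1) less its mean over 20 livers, with a column for each liver and lines between G1 and S entry, DNA replication, and G2 and mitosis. GFP replicate 1 is the darkest column for all 27 mitotic genes, GFP replicates 2, 3 and 4 are above the mean for most of them, and the replication genes vary less.

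Cyclins B1 and B2 and cyclin A2 bind Cdk1, the kinase that drives entry into mitosis. Ccnb2 (chr9:70407692-70421547, minus strand) was at 0.969, 0.397, 0.366, 0.459 and 0.410 CPM in PKLR livers, against 11.1, 1.79, 3.18, 2.43 and 1.00 CPM in GFP livers. No PKLR liver reached the lowest GFP liver. Ccnb2 had a log2 fold change of -2.88 (SE 0.65, adjusted p = 0.0534), and of -1.98 (SE 0.38, adjusted p = 0.0365) without GFP replicate 1. Ccnb2 was at 0.615, 0.482, 0.559, 0.545 and 0.347 CPM in shPKLR livers, against 0.202, 0.153, 0.401, 0.696 and 0.653 CPM in shLUC livers, with overlap.

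Cdk1 (chr10:69335146-69352938, minus strand) was at 1.28, 0.549, 0.788, 1.04 and 0.931 CPM in PKLR livers, against 10.4, 2.21, 2.27, 3.66 and 1.17 CPM in GFP livers. PKLR replicate 1 was above GFP replicate 5, and no other PKLR liver reached the GFP range. For Cdk1 the log2 fold change was -2.11 (SE 0.55, adjusted p = 0.0817), and -1.34 (SE 0.32, adjusted p = 0.0739) without GFP replicate 1. Cdk1 was at 1.37, 0.783, 1.12, 1.19 and 1.21 CPM in shPKLR livers, against 0.673, 0.429, 0.771, 1.03 and 0.738 CPM in shLUC livers. Of the shPKLR livers, 4 were above every shLUC liver, and the log2 fold change was 0.64 (SE 0.26, adjusted p = 0.3). Ccna2 and Ccnb1 had log2 fold changes of -2.50 (SE 0.79) and -3.43 (SE 1.02) in the overexpression experiment with no filter.

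Birc5 encodes survivin, a part of the chromosomal passenger complex with Aurora B. Birc5 (chr11:117849251-117855743, plus strand) was at 1.25, 1.01, 1.07, 0.550 and 0.745 CPM in PKLR livers, against 9.10, 2.24, 3.73, 3.35 and 1.34 CPM in GFP livers. All PKLR livers were below all GFP livers, the nearest values being 1.25 and 1.34 CPM. Birc5 had a log2 fold change of -2.09 (SE 0.47, adjusted p = 0.050), on the threshold, and of -1.51 (SE 0.32, adjusted p = 0.0484) without GFP replicate 1. Birc5 was at 0.979, 0.603, 1.35, 2.01 and 0.954 CPM in shPKLR livers, against 0.572, 0.582, 0.987, 1.09 and 1.07 CPM in shLUC livers, with overlap.

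The other mitotic regulators of this kind are the kinases Aurka, Aurkb, Plk1 and Melk and the transcription factor Foxm1, which turns on many mitotic genes. Aurka had the log2 fold change nearest to 0 of these in the overexpression fit with no filter, -1.03 (SE 0.34), at 2.38 to 2.94 CPM in PKLR livers, against 3.13 to 11.8 CPM in GFP livers, with no overlap. Foxm1 was at 0.253 to 1.02 CPM in PKLR livers, against 0.865 to 5.30 CPM in GFP livers, a log2 fold change of -2.12 (SE 0.55). Plk1 was at 0.186 to 0.893 CPM in PKLR livers, against 0.335 to 8.50 CPM in GFP livers, a log2 fold change of -2.76 (SE 0.87). Aurkb and Melk had log2 fold changes of -2.15 (SE 0.65) and -1.96 (SE 0.87).

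Cdc20 activates the anaphase promoting complex, Ube2c is an E2 enzyme of that complex, and Bub1 and Bub1b belong to the spindle checkpoint. Cdc20 (chr4:118432901-118437352, minus strand) was at 1.84, 0.488, 0.591, 0.825 and 0.670 CPM in PKLR livers, against 27.4, 3.29, 6.23, 6.12 and 1.34 CPM in GFP livers. PKLR replicate 1 was above GFP replicate 5, and GFP replicate 1 was above all. Its log2 fold change was -3.30 (SE 0.79, adjusted p = 0.0673), and -2.23 (SE 0.50, adjusted p = 0.0702) without GFP replicate 1. Cdc20 was at 1.03, 0.452, 0.855, 0.261 and 0.578 CPM in shPKLR livers, against 0.370, 0.307, 0.339, 1.42 and 0.885 CPM in shLUC livers, with overlap.

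Ube2c (chr2:164769898-164778822, plus strand) was at 1.07, 0.672, 0.366, 0.306 and 0.372 CPM in PKLR livers, against 11.9, 1.90, 2.27, 2.68 and 0.698 CPM in GFP livers. Only PKLR replicate 1 was above the lowest GFP liver. For Ube2c the log2 fold change was -2.78 (SE 0.74, adjusted p = 0.0864), and -1.73 (SE 0.44, adjusted p = 0.0919) without GFP replicate 1. Ube2c was at 0.587, 0.663, 0.559, 0.764 and 0.521 CPM in shPKLR livers, against 0.539, 0.398, 0.648, 1.09 and 0.780 CPM in shLUC livers, with overlap. Bub1 and Bub1b had log2 fold changes of -2.99 (SE 0.87) and -1.67 (SE 0.61) in the overexpression experiment with no filter.

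Mki67, which coats mitotic chromosomes and is the usual marker of dividing cells, was called for the difference between experiments but not for overexpression. Mki67 (chr7:135689784-135716361, minus strand) was at 5.15, 1.80, 1.72, 1.47 and 1.86 CPM in PKLR livers, against 49.9, 6.37, 9.60, 11.3 and 2.99 CPM in GFP livers. PKLR replicate 1 was above GFP replicate 5, and the other PKLR livers were below every GFP liver. Mki67 had a log2 fold change of -2.72 (SE 0.75, adjusted p = 0.0938), and of -1.64 (SE 0.47, adjusted p = 0.144) without GFP replicate 1. Mki67 was at 3.66, 0.844, 2.20, 2.83 and 1.53 CPM in shPKLR livers, against 1.08, 1.81, 1.85, 2.94 and 2.74 CPM in shLUC livers, with overlap. Top2a, the topoisomerase that untangles sister chromatids, had a log2 fold change of -2.09 (SE 0.70) in the overexpression experiment with no filter.

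Stmn1 encodes stathmin, which destabilises microtubules. It had the highest level of the mitotic genes per kilobase of exon in all 4 groups, at 1.86 CPM per kb in PKLR livers and 6.49 CPM per kb in GFP livers. Stmn1 (chr4:134468320-134473843, plus strand) was at 4.87, 2.96, 3.10, 2.97 and 4.02 CPM in PKLR livers, against 30.1, 7.98, 9.67, 10.1 and 4.49 CPM in GFP livers. PKLR replicate 1 was above GFP replicate 5. Across livers its log2 fold change was -1.80 (SE 0.46, adjusted p = 0.0786), and -1.16 (SE 0.24, adjusted p = 0.0472) without GFP replicate 1. Stmn1 was at 4.53, 4.07, 4.54, 4.69 and 6.42 CPM in shPKLR livers, against 3.80, 2.73, 3.30, 4.48 and 2.89 CPM in shLUC livers. Among shPKLR livers, 4 were above every shLUC liver, and the log2 fold change was 0.50 (SE 0.18, adjusted p = 0.278).

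The motor proteins and other spindle and kinetochore genes are Kif11, Kif20a, Kif2c, Nusap1, Prc1, Tpx2, Cenpe, Cenpf, Hmmr and Spc25. Their log2 fold changes in the overexpression experiment with no filter ran from -3.04 (SE 0.97) for Cenpf, which binds kinetochores, to -0.72 (SE 0.36) for Spc25, a subunit of the Ndc80 complex. Spc25 had the log2 fold change nearest to 0 of the 27 mitotic genes in that fit, at a mean of 4.25 CPM in PKLR livers and 7.06 CPM in GFP livers, or 5.35 CPM in GFP livers without replicate 1. Kif20a, a kinesin of cytokinesis, was at 0.489 to 1.30 CPM in PKLR livers, against 1.12 to 12.6 CPM in GFP livers, a log2 fold change of -2.46 (SE 0.72), and passed the test with no filter once GFP replicate 1 was left out (-1.45, adjusted p = 0.0302).

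Promoters are shown for Ccnb2, Cdc20, Cdk1, Ube2c, Birc5 and Ccnb1, the mitotic genes with an entry that had the smallest overexpression p, to set their letters beside a pattern of levels that they share across livers. The windows run from 250 bases before to 50 bases after the RefSeq start in GRCm38.p6, and an entry was found for 32 of the 41 members, the others being Kif20a, Mcm4, Stmn1, Foxm1, Ccna2, Tpx2, Ccnd1, Ccne2 and Aurkb. Capitals mark matches on either strand to TTTGAA (the core of the cell cycle homology region, bound by the DREAM and MuvB complexes), CCAAT (bound by NF-Y) and the E2F motifs GCGGGAA and TTGGCGC. A match to CCAAT on the other strand reads ATTGG, and one to TTTGAA reads TTCAAA. Matches may overlap, as 2 CCAAT matches do in Ube2c, and a CCAAT with a reversed TTGGCGC in Ccnb1. Ccnb2 is at chr9:70421505-70421804, minus strand. Cdc20 is at chr4:118437294-118437593, minus strand. Cdk1 is at chr10:69352863-69353162, minus strand. Ube2c is at chr2:164769679-164769978, plus strand. Birc5 is at chr11:117848987-117849286, plus strand. Ccnb1 is at chr13:100786437-100786736, minus strand.
Ccnb2: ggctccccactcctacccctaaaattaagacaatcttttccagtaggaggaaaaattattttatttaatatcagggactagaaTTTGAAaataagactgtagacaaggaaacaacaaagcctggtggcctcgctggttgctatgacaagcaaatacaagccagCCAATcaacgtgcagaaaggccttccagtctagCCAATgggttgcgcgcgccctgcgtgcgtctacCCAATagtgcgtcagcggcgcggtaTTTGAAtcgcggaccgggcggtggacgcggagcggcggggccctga
Cdc20: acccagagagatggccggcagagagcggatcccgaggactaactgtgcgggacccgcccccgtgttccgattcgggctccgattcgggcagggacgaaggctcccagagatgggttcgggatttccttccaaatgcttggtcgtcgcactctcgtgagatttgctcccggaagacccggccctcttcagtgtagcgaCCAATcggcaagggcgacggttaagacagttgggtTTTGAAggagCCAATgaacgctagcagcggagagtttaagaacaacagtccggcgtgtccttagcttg
Cdk1: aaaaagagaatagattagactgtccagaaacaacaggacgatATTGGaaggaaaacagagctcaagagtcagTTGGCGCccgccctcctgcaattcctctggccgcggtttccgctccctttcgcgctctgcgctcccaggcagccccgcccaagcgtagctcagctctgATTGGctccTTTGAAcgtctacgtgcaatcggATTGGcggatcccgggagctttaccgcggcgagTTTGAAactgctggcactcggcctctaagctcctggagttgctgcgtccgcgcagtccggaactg
Ube2c: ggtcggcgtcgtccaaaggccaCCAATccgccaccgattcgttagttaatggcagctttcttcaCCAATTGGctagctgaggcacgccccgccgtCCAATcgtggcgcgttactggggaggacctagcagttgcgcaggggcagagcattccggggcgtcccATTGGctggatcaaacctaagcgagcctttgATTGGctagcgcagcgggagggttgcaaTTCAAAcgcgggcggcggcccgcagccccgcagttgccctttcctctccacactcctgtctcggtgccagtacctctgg
Birc5: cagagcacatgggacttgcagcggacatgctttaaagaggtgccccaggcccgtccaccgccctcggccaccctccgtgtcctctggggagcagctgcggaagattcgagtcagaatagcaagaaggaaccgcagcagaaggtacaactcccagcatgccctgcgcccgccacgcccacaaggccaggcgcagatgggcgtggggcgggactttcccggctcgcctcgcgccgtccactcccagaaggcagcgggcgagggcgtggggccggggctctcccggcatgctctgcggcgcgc
Ccnb1: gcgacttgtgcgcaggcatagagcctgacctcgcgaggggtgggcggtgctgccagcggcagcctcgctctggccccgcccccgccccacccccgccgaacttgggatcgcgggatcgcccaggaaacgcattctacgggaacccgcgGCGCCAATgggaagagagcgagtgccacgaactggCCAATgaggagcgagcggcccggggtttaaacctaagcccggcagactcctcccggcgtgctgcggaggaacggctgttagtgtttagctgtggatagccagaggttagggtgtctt

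Of these promoters, Ccnb2 and Cdk1 hold 2 matches to TTTGAA each, Cdc20 and Ube2c hold 1 each, and Birc5 and Ccnb1 hold none in this window. The first base of the match nearest to the start lay at 5 in Ccnb2, -18 in Cdc20, -15 in Cdk1 and -29 in Ube2c, counted from the start site. TTTGAA was present in 15 of 21 mitotic promoters, 1 of 9 replication promoters and 0 of 2 of G1 and S entry, against 17.9% of all 32851 promoters of the same length. CCAAT was present in 17 of 21 mitotic and 7 of 9 replication promoters, against 37.4% of all. GCGGGAA was present in 0 of 21 mitotic and 3 of 9 replication promoters, against 4.60% of all, and TTGGCGC in 3 of 21 and 4 of 9, against 2.45%. A match describes letters only, and no binding was measured here.

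Other genes of the cycle were read from lists of known function. Of 77 mitotic genes outside the members, 61 were tested in the overexpression experiment and 55 were lower in PKLR livers, with a median log2 fold change of -1.47, against 0.01 over all tested genes, and -0.71 without GFP replicate 1. None was called by edgeR's quasi-likelihood test with Benjamini-Hochberg adjustment, and 40 were lower and 2 higher at an unadjusted p under 0.05, against 9.16% and 9.68% of all tested genes, shares that are the background of every list in this experiment. With no filter, 71 of all 77 were lower, with a median of -1.68, against -0.00 over all genes fitted, and a median of -0.88 without GFP replicate 1. In that fit of all livers 52 were lower and 2 higher at an unadjusted p under 0.05, against 7.14% and 6.92% of all genes fitted. Mxd3 was called lower there, against 0.536% of all genes fitted. The smallest p were those of Ttk, the Mps1 checkpoint kinase, with a log2 fold change of -2.85 (SE 0.70, adjusted p = 0.0667), and Ckap2l, a spindle protein, with -3.21 (SE 0.78, adjusted p = 0.0686). Without GFP replicate 1 the kinase Nek2 was called, with a log2 fold change of -1.01 (SE 0.19, adjusted p = 0.0342), against 0.489% of all tested genes called lower. With no filter and without GFP replicate 1, Nek2, Depdc1a, Mxd3 and Knstrn were called lower, 4 of 77, against 0.431% of all genes fitted. In the knockdown experiment none of 44 tested was called, and 3 were lower and 3 higher at an unadjusted p under 0.05, against 5.66% and 9.32% of all tested genes. For the difference between experiments, 9 of 67 tested were called lower and 1 higher, against 2.75% of all tested genes in each direction, and with no filter 7 of 77 lower, against 1.32% of all genes fitted, and 1 higher. Among them were Nek2, with a difference of -1.74 (SE 0.45, adjusted p = 0.0306), Kif15, a spindle kinesin, with -2.98 (SE 0.61, adjusted p = 0.00859), and the tubulin gene Tuba1b, the higher member, with 0.94 (SE 0.19, adjusted p = 0.00772).

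Of 38 replication factors outside the members, 33 were tested in the overexpression experiment and none was called, with 3 lower and 2 higher at an unadjusted p under 0.05 and a median log2 fold change of -0.10. Pola2, a subunit of DNA polymerase alpha, had 0.38 (SE 0.10, adjusted p = 0.0778) there, and Prim1, the primase, had 0.53 (SE 0.17, adjusted p = 0.255) in the knockdown and -0.45 (SE 0.19, adjusted p = 0.22) in the overexpression. For the difference between experiments Prim1 was called, at -1.0 (SE 0.24, adjusted p = 0.0214), the only call among 36 replication factors tested there, against 2.75% of all tested genes called lower. None of 7 tested replication-dependent histone genes was called in either experiment, with 1 lower at an unadjusted p under 0.05 in the overexpression and none in the knockdown. Hist1h4i had a log2 fold change of -0.65 (SE 0.25, adjusted p = 0.175) in the overexpression, and Hist1h4a had 0.48 (SE 0.31, adjusted p = 0.452) in the knockdown.

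Among 15 tested regulators and inhibitors of G1, none was called in either experiment, with 2 lower at an unadjusted p under 0.05 in the overexpression and none in the knockdown. Of all tested genes, 9.16% were lower at that p, so these 2 genes are not read as a result about inhibitors. Both encode inhibitors of the cycle, and no other inhibitor in the list was lower at that p. With no filter and without GFP replicate 1, 1 of 17 genes of the list was lower at an unadjusted p under 0.05. Cdkn1a, which encodes p21, averaged 11.0 ± 4.96 CPM in PKLR livers and 32.8 ± 20.7 CPM in GFP livers (SD, n = 5 each), with 62.0 CPM in GFP replicate 1, a log2 fold change of -1.57 (SE 0.49, adjusted p = 0.122). Cdkn2c, which encodes p18, averaged 2.85 ± 0.552 CPM in PKLR livers and 5.93 ± 2.66 CPM in GFP livers (SD, n = 5 each), a log2 fold change of -1.05 (SE 0.28, adjusted p = 0.0779). Of 16 tested targets of p53, Btg2, an inhibitor of proliferation, was called lower in PKLR livers, with a log2 fold change of -1.34 (SE 0.23, adjusted p = 0.0188), and it was also called without GFP replicate 1, at -1.21 (SE 0.23, adjusted p = 0.04). Of all tested genes, 0.846% and 0.489% were called lower in these 2 fits. With no filter Btg2 was called with all livers, against 0.536% of all genes fitted. That call was lost once GFP replicate 1 was also left out. Btg2 and Gadd45b were called for the difference between experiments, at -1.53 (SE 0.38, adjusted p = 0.0246) and -2.55 (SE 0.64, adjusted p = 0.026). They were 2 of 16 tested there, against 2.75% of all tested genes called lower. Of 16 tested E2F, pocket and MuvB proteins, Lin54, a DNA-binding subunit of MuvB, was called higher in PKLR livers, against 1.19% of all tested genes. Its log2 fold change was 0.43 (SE 0.10, adjusted p = 0.050), on the threshold. That call was lost with no filter and without GFP replicate 1, at 0.41 (SE 0.11, adjusted p = 0.0932). Lin54 was also called for the difference between experiments, at 1.04 (SE 0.29, adjusted p = 0.037), 1 of 17 tested, against 2.75% of all tested genes called higher.

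Markers of other cells of the liver were read in the same livers. The 18 macrophage markers summed to 503, 333, 522, 235 and 579 CPM in PKLR livers, against 804, 565, 251, 566 and 283 CPM in GFP livers, so GFP replicate 1 was the highest, GFP replicates 3 and 5 were among the lowest, and the groups overlapped. Of the 18, 14 were lower in PKLR livers with a median log2 fold change of -0.40, and -0.12 without GFP replicate 1. Gpnmb, a glycoprotein of lipid-laden macrophages, was called at -3.55 (SE 0.75, adjusted p = 0.0427), a call lost without GFP replicate 1, at -3.19 (SE 0.76, adjusted p = 0.094). The 13 stellate and matrix markers summed to 281, 207, 192, 205 and 148 CPM in PKLR livers, against 457, 486, 226, 351 and 291 CPM in GFP livers. Of the 13, 12 were lower in PKLR livers with a median of -0.86, and -0.75 without GFP replicate 1, and the matrix protein gene Thbs2 was called at -1.13 (SE 0.24, adjusted p = 0.0341), a call lost without GFP replicate 1, at -0.95 (SE 0.22, adjusted p = 0.0633). With no filter, Thbs2 was called with and without GFP replicate 1, against 0.536% and 0.431% of all genes fitted. Gpnmb was called in neither of those fits. The highest matrix sum was that of GFP replicate 2, whose mitotic sum was the second lowest of the GFP livers. Next came GFP replicate 1, whose mitotic sum was the highest.

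The 9 neutrophil markers found summed to 0.704 to 1.90 CPM in PKLR livers, against 0.809 to 4.45 CPM in GFP livers, with GFP replicate 1 the highest, S100a9 at a log2 fold change of -1.22 (SE 0.58, adjusted p = 0.286) and S100a8 at -0.16 (SE 0.55, adjusted p = 0.905). The neutrophil sums averaged 1.41 CPM in PKLR livers and 1.99 CPM in GFP livers, or 1.37 CPM in GFP livers without replicate 1. The 16 lymphocyte markers summed to 11.2 to 15.5 CPM in PKLR livers, against 14.8 to 22.9 CPM in GFP livers, and Igkc, the light chain of antibodies, was called at -0.74 (SE 0.16, adjusted p = 0.0389), a call lost without GFP replicate 1, at -0.66 (SE 0.16, adjusted p = 0.0791). With no filter, Igkc was called with and without GFP replicate 1, against 0.536% and 0.431% of all genes fitted. The 9 erythroid markers found, among them Alas2 and Slc4a1, summed to 461 to 972 CPM in PKLR livers, against 499 to 1513 CPM in GFP livers. The 8 endothelial markers, among them Stab2 and Lyve1, averaged 157 ± 39.8 CPM in PKLR livers and 152 ± 27.8 CPM in GFP livers (SD, n = 5 each). None of the genes of these marker lists was at 0 in every overexpression liver. In the knockdown, the 18 macrophage markers averaged 443 ± 115 CPM in shPKLR livers and 336 ± 74.3 CPM in shLUC livers (SD, n = 5 each), with 17 of 18 higher in shPKLR livers, a median log2 fold change of 0.48, and none called (5 higher at an unadjusted p under 0.05, against 9.32% of all tested genes). For the difference between experiments, of the macrophage markers, 17 of 18 had a lower effect of overexpression than of knockdown, with a median difference of -0.79, and 5 were called (Itgax, Gpnmb, Cx3cr1, Marco and Trem2), against 2.75% of all tested genes. Of the stellate and matrix markers, 12 of 13 were lower, with a median of -0.80, and Col3a1, Des, Thbs2 and Col1a2 were called. Of 14 lymphocyte markers tested, 13 were lower, with a median of -0.87, and Igkc was called. For that difference with no filter, Itgax, Cx3cr1, Gpnmb and Des were called of these 3 lists, against 1.32% of all genes fitted called lower. The part of these cells in the levels of the mitotic genes was not tested.

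**Figure D4:**
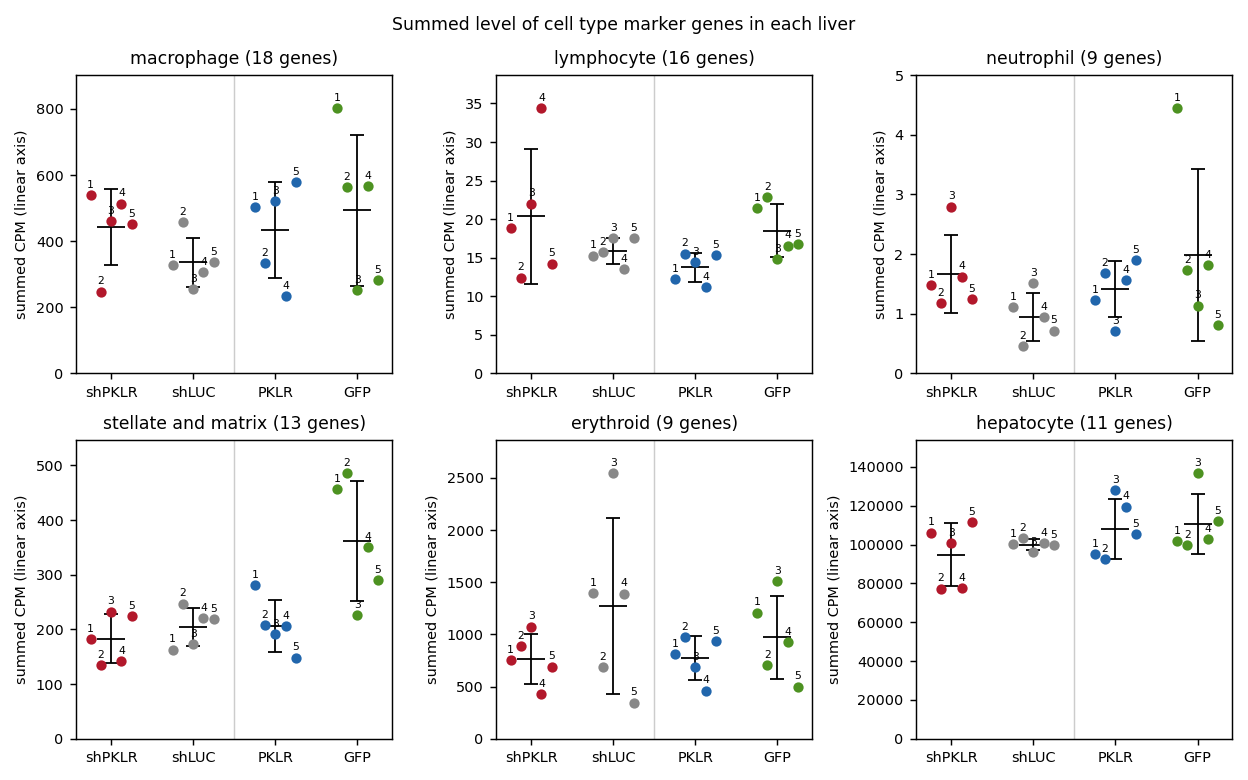
Summed CPM of the markers of 6 cell types in each liver, on linear axes from 0, with the replicate number above each point and bars for the mean and 1 SD of 5 livers. GFP replicate 1 is the highest liver for the 18 macrophage and the 9 neutrophil markers, and 4 of 5 GFP livers are above every PKLR liver for the 13 stellate and matrix markers.

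Some members share sequence with other genes, and the strand setting of the counting is not given in the sources used here. Cdc20, Mcm7, Ccne2, Ccna2, Kif20a, Ccnd1, Prc1 and Nusap1 overlap a listed protein-coding gene on the opposite strand. For Cdc20 that neighbour is Elovl1, with 13240 counts over the overexpression libraries, against 1875 for Cdc20. The pseudogenes Pcna-ps2, Ccnb1-ps and Ccnb2-ps held 1554, 229 and 237 counts over the overexpression libraries, against 6979, 771 and 840 for Pcna, Ccnb1 and Ccnb2. How reads were divided between these pairs is uncertain.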

How the data were processed

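Liver RNA of 20 mice in 4 groups of 5 was sequenced from libraries made with a stranded total RNA kit, per the labels' protocols. The authors deposited 2 tables of read counts per gene, 1 for each experiment, not normalized; every value column matched a sample by name. Per the submitters' processing notes, HISAT2, DESeq2, GRCm38 and mm10 were used; which program counted reads, on which annotation and strand, is not given in the sources used here.

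Symbols came from GENCODE M21 of GRCm38, which matched 26912 of 27052 identifiers in the knockdown table and 26146 of 26286 in the overexpression table. The members, lists and tests were chosen with earlier results of these data known. Each comparison was fitted on the whole table with edgeR 4.0.16 in R 4.3.3 (robust quasi-likelihood, filterByExpr with a minimum count of 10, TMM), with Benjamini-Hochberg adjustment over all genes tested and calls at an adjusted p of 0.05. Where no other tool is named, an adjusted p is edgeR's. The difference between experiments used 1 model with 4 group means on genes of both tables. An SE is the size of the log2 fold change divided by the square root of its F statistic. CPM are counts per 1000000 with TMM scaling. At 29933820 to 45413803 counts in 19 libraries and 167891680 in the other, genes under 1 CPM are the least precise. Mean ± SD covers the livers of a group.

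Values in every liver are given for members called in any of the 3 contrasts, the highest member of each phase, and those with the smallest p (3 for overexpression, 2 for knockdown) in each phase; of each other list, the called genes or the 2 with the smallest p are named. Nek2, Mxd3, Depdc1a, Knstrn, Aurka, Foxm1, Plk1, Kif20a, Spc25 and list genes called only for the difference between experiments were named after their values were seen. Alternatives were RLE size factors, no filter, a filter of over 1 CPM in 5 libraries, DESeq2 1.42.0, limma-voom (limma 3.58.1), the replicate number as a block, a joint fit of the 20 libraries, and leaving out 1 library at a time. Sample quality weights, and the fit with no filter combined with the block or without GFP replicate 1, were added after seeing the data. Scripts were tested on simulated counts. The cholangiocyte marker list is not reported here.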

Additional observations from a re-analysis of the deposited data

Results flagged for a closer look

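Livers far from the rest of their group were looked for in 80 groups of 5 (20 genes or sums in 4 groups), by the gap to the nearest liver divided by the range of the group, where a share above 0.71 stands out and chance marks about 1 in 20 groups. There were 15. In GFP livers they were Mki67 (0.823), Ccnb2 (0.785), Cdk1 (0.732), Cdc20 (0.812), Ube2c (0.823), Stmn1 (0.783) and the mitotic sum (0.822), each with GFP replicate 1 as the high liver. In PKLR livers they were Mki67 (0.893), Ccnb2 (0.847), Cdc20 (0.750) and the mitotic sum (0.893), with PKLR replicate 1 high, and Ccne2 (0.723), with PKLR replicate 3 high. In shPKLR livers they were Mcm4 (0.749), with replicate 1 high, and Stmn1 (0.737) and the sum of G1 and S entry (0.768), with replicate 5 high. These values share livers and, for the sums, genes, and are not independent of each other.

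The effect of overexpression differed from that of knockdown, in the model of all 20 livers, for Mki67 (-2.84), Ccnb2 (-3.16), Cdk1 (-2.77), Birc5 (-2.59), Ube2c (-2.66) and Stmn1 (-2.32), on the log2 scale. The overexpression effect was the lower for all 6. With limma-voom the calls were Birc5, Cdk1 and Stmn1, and with sample quality weights Stmn1 alone. The calls of Mki67 (adjusted p = 0.0476) and Ube2c (adjusted p = 0.0494) lie near the threshold of edgeR's test. Each was lost in 15 of 20 fits with a library left out, with RLE size factors, with limma-voom and with no filter; without GFP replicate 1 the differences were -1.76 (adjusted p = 0.111) and -1.61 (adjusted p = 0.0996).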

How the results depend on the processing

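The number of members called lower in PKLR livers was 1, and it was 0 with RLE size factors, with no filter, with a filter of over 1 CPM in 5 libraries, with limma-voom and with sample quality weights, 25 with DESeq2, 22 in 1 fit of all 20 libraries, and 5 with no filter and without GFP replicate 1. Leaving out each library in turn gave 0 to 12 (12 without GFP replicate 5, 3 without GFP replicate 1, 0 without any other). The number called for the difference between experiments was 6, and it was 18 with DESeq2, 3 with limma-voom, 1 with sample quality weights, and 4 to 19 with a library left out (19 without GFP replicate 5, 11 without PKLR replicate 1). Its median over tested members was -2.002, and it was -1.20 with sample quality weights and -2.42 to -1.08 with a library left out, the last without GFP replicate 1. The overexpression median ran from -2.16 to -1.17 with a library left out, and the knockdown median from -0.13 to 0.08, with 0 members called in every knockdown fit. The causes were not tested. Whether replicate numbers pair the livers is not given by the labels and remains uncertain. Correlations of same-numbered deviations ran from -0.20 to 0.35 in the knockdown and from -0.11 to 0.26 in the overexpression. Replicate 4 of the knockdown (0.35) and replicate 1 of the overexpression (0.26) were best matches in both directions, and no other number was. With the replicate block, 19 members were called for overexpression, 20 with no filter, 16 for the difference and 0 for knockdown. Shares of all genes called are not given for those fits or for 1 fit of all 20 libraries. For the difference they are also not given with DESeq2, limma-voom or sample quality weights. In overexpression DESeq2 called 3.62% of all tested genes lower, against 0.846% in the main fit. These counts thus compare fits only. Of 1113 values of named members under alternatives, 1017 kept their side of the threshold, of which 31 changed sign without being called, 55 lost the call, 41 gained it and 0 called values changed sign.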
